A study of Mus musculus with 4 samples.

Results

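Nr4a-TKO and WT iTreg cells were compared at 3 h of culture, with 1 Agilent expression array for each. The members are the named genes whose probe was well above local background on both arrays, which held for 17790 of the 27204 genes named on the array. Differences are described here by gene family, and most weight is given to genes with more than 1 probe. The iTreg cells (regulatory T cells induced in culture) came from naive CD4+ T cells sorted as CD25 low, CD44 low, CD62L high and Foxp3-, and were kept for 3 h on plate-bound anti-CD3 with anti-CD28, anti-IFN-γ, anti-IL-4, IL-2 and TGF-β1, for which the labels give no single dose. Nr4a-TKO cells lack Nr4a1, Nr4a2 and Nr4a3, with floxed Nr4a1 and Nr4a2 alleles and a germline Nr4a3 knockout per the methods, and the Cre driver was not given in the sources used here. The Nr4a alleles were on the C57BL/6J background per the methods, and cells of both genotypes were taken from bone marrow chimeras in irradiated Rag2-/- recipients. For WT and Nr4a-TKO cells from these chimeras the methods name no CD25 gate, which they give for OT-II cells. The recipients held mixed WT and Nr4a-TKO marrow for the Nr4a-TKO cells and WT marrow alone for the WT cells, so genotype and type of chimera cannot be told apart. Naive T cells of both genotypes had 1 array each and are used for the difference before culture.

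Nr4a1, Nr4a2 and Nr4a3 are orphan nuclear receptors that T cells switch on as immediate early genes when the T cell receptor (TCR) is engaged. They bind a single extended half-site in DNA without needing a ligand. In T cells they are known for their part in the development of Treg cells, in tolerance and in exhaustion.

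The 4 arrays were on 1 slide with 1 scan time, each held 59305 spots other than controls, and 66.3% to 68.9% of these were well above background. Levels are given as log2 of the scanner's processed intensity minus the 75th percentile of the array. A level of 0 is thus the 75th percentile, and the lowest signal well above background lay at -4.17 on the WT and -4.31 on the Nr4a-TKO array of iTreg cells at 3 h. Levels of different probes are not set against each other. A difference is the Nr4a-TKO level minus the WT level, and 2-fold is a difference of 1. Each group has 1 array, so the spread between replicates is unknown, nothing was tested, and precision is limited by how few arrays there are. For probes with 5 or more spots the SD of a difference between arrays was 0.069 at the median, and 0.33 for those below a level of -2. These SDs hold spot-to-spot error alone.

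The knocked-out genes serve as a check of the labels. At 3 h Nr4a1 read 4.69 on the array labelled WT and 5.19 on the array labelled Nr4a-TKO. The brighter Nr4a2 probe read 2.19 and 3.60 on the same arrays, and the other 1.95 and 3.33. Neither Nr4a1 nor Nr4a2 was thus lower on the array labelled as knockout. The 3 probes of Nr4a3, on chromosome 4 of mm9, did not read alike, and the first 30 bases of each are shown because the label check turns on which part of the transcript a probe reads. The probe at chr4:48080690-48083876 read 2.71 on the array labelled WT and 0.74 on the array labelled Nr4a-TKO, and the probe at chr4:48064521-48064580 read 2.19 and 0.64. The probe at chr4:48062977-48063036 read 2.88 and 3.10. The sequences are written in lower case, with no capitals because no base is singled out.
Nr4a3 probe from 48080690: agaatcagcctttttggagctgtttgttct
Nr4a3 probe from 48064521: gtacttcaagcagtctccgccgtctacacc
Nr4a3 probe from 48062977: actcggaaaaaccaaccaccagaaactccc
In naive T Nr4a1 was more than 2-fold higher on the array labelled Nr4a-TKO, and the brightest Nr4a2 and Nr4a3 probes differed by 0.20 and 0.05. Whether any of the 6 probes lies in a deleted part was not analysed here. The arrays are called WT and Nr4a-TKO by their labels, and every direction rests on these labels.

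The CD4 T cell markers were measured on both arrays for 10 of 10 genes. Cd3e, a chain of the TCR complex, read 5.63 on the WT and 5.36 on the Nr4a-TKO array, and the coreceptor Cd4 read 3.78 and 3.32. Trat1, an adaptor associated with the TCR, was the exception of the list, with 0.59 on the WT and -2.47 on the Nr4a-TKO array from its single probe. Markers of other cells were also above background. All 13 B cell and MHC class II markers were higher on the Nr4a-TKO array, with a median difference of 0.82 and a summed level of 3.62 on the WT and 4.51 on the Nr4a-TKO array. The 4 past 2-fold were Cd79a, Fcer2a, H2-Aa and H2-Ab1, whereas the B cell genes Ms4a1 and Pax5 differed by 0.05 and 0.12. In naive T the median of this list was 0.60. Of 13 myeloid markers, 8 were measured on both arrays with a median difference of -0.04. Their summed level was 8.29 on the WT and 8.34 on the Nr4a-TKO array. Cd14 was above background on the Nr4a-TKO array alone, and Lyz1, S100a8 and Adgre1 were not above background on either. In such bulk RNA, more cells of a type and more RNA per cell cannot be told apart.

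Over all 17790 genes the median difference was 0.01, and most genes lay between -0.59 and 0.65, the percentiles that leave out 5% at each end. Past 2-fold lay 623 genes (3.5%), of which 318 (1.79% of all) had the higher level on the Nr4a-TKO array and 305 (1.71%) the lower. In naive T 551 of 17597 genes (3.13%) were past 2-fold, 290 of them higher (1.65%) and 261 lower (1.48%). The share past 2-fold in either direction depended on the level. It was 5.57% of the 5310 genes with a mean level below -2 and 1.06% of the 3106 genes above 2. The genes nearest the threshold were Gm16006 at 1.00 inside and 4930488N15Rik at 1.00 outside on the higher side, which differed in the third decimal. A further 2152 genes were above background on 1 of the arrays alone. The other array was then set to its floor, the lowest level of a named gene well above background there. Against this floor 265 of these genes were more than 2-fold higher on the Nr4a-TKO array and 263 lower. A probe that is not well above background can still read above the floor, so such folds are estimates and not strict limits. The remaining 7262 named genes were not well above background on either.

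At least 2 probes were measured for 6965 genes. A gene was counted as agreeing when at least 2 of its probes were past 2-fold the same way and none the other way. By this rule 58 genes (0.833%) were higher and 34 (0.488%) lower on the Nr4a-TKO array. Where the brightest probe of such a gene was past 2-fold higher, a second one was as well in 51 of 100 genes, and on the lower side in 27 of 85 genes. For naive T the same counts were 21 of 90 and 13 of 63, and 26 genes (0.379%) agreed on the higher and 18 (0.262%) on the lower side. Every measured probe was past 2-fold for 36 of the agreeing genes on the higher side and 22 on the lower side. For 2 of the higher genes, Ccl4 among them, and 1 of the lower genes, Ccl27a, the agreeing probes share sequence and are not separate readings. The agreeing genes with a bright probe stand clear of the bulk of the genes in the plot of levels.

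**Figure D1:**
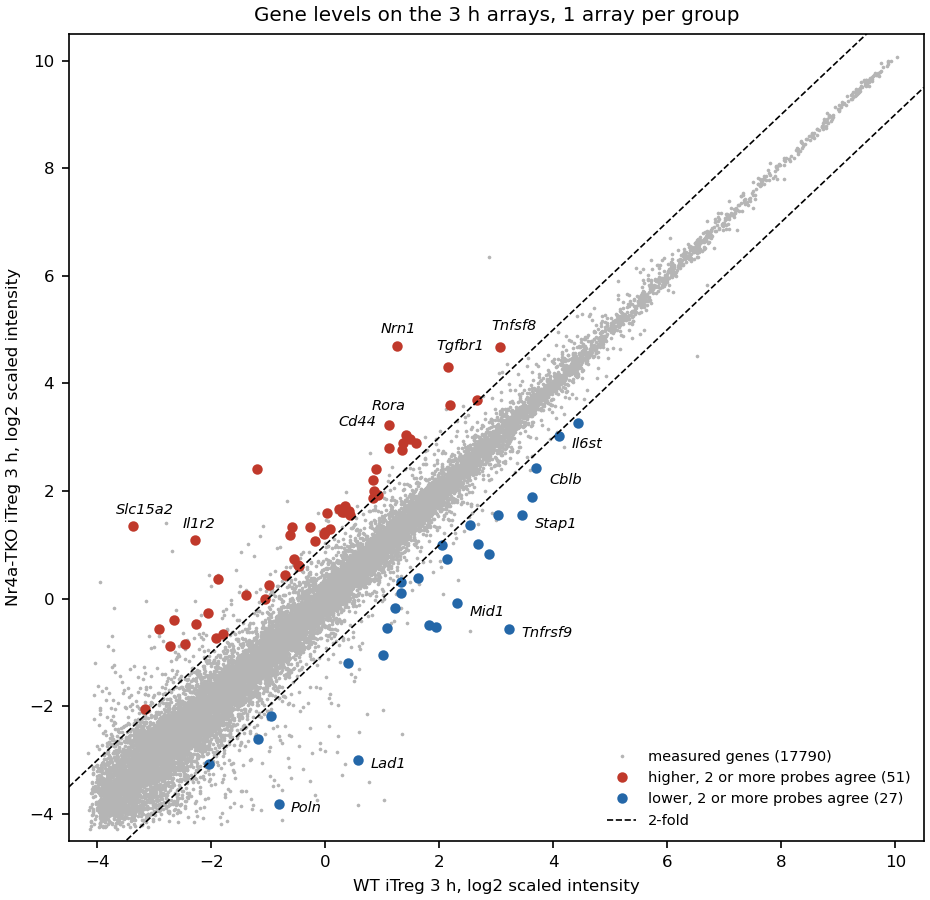
Level of each of the 17790 measured genes on the WT array (x axis) and the Nr4a-TKO array (y axis) of iTreg cells at 3 h, in log2 scaled intensity, with 1 array per group. Red and blue points are the 51 higher and 27 lower genes whose brightest probe was past 2-fold (dashed lines) together with a second probe. The band of all genes narrows towards high levels.

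On the higher side the agreeing genes were led by Il1r2, Prelid2, Endod1, Nrn1, Farp1 and Rora. The order is by the second largest difference in that direction among the measured probes of a gene. Il1r2, the decoy receptor that binds IL-1 without signalling, read -2.29 on the WT and 1.08 on the Nr4a-TKO array, 10.4-fold apart, and its other probe differed by 3.00. In naive T neither Il1r2 probe was above background on either array. Prelid2, which has a PRELI domain, read -1.21 and 2.42, and was apart by 2.82 in naive T. Endod1, with an endonuclease domain, read -1.88 and 0.37, and Farp1, which has a FERM domain, read -2.92 and -0.56. Both were also past 2-fold higher in naive T, at 1.86 and 1.14. Nrn1, a GPI-anchored protein known from neurons and from tolerant T cells, read 1.26 and 4.70, with a difference of 2.22 for the other probe, and Nrn1 was already apart before culture, by 3.59 in naive T. Alcam, the ligand of CD6, read -0.62 on the WT and 1.19 on the Nr4a-TKO array. Cd200, whose receptor inhibits myeloid cells, read -0.59 and 1.33, and was apart by 1.33 in naive T. Cd44, the hyaluronan receptor of activated T cells, read 1.41 and 3.05, and all 3 of its probes differed by 1.49 to 1.64. The sort of the naive cells selected low CD44 protein, and in naive T the brightest Cd44 probe differed by 0.23. In mm9 the brightest probe lies at chr2:102654278-102654337 for Cd44, and those of Il1r2 and Nrn1 span chr1:40168971-40171918 and chr13:36817491-36817495 as the array's annotation gives them.

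On the lower side Lad1, Tnfrsf9, Mid1 and Mmd came first in the same order. Tnfrsf9, or 4-1BB, a costimulatory TNF receptor, read 3.23 on the WT and -0.56 on the Nr4a-TKO array, 13.8-fold apart, and its other probe differed by -3.31. In naive T the Tnfrsf9 probes differed by -2.15 and -0.60. Lad1, an anchoring filament protein known from epithelium, read 0.58 and -3.00, 11.9-fold apart, and its naive difference was 0.08. Mid1, a TRIM family ubiquitin ligase of microtubules, read 2.31 and -0.09, and all 7 of its measured probes were lower, by -1.64 to -3.29. Stap1, an adaptor with a PH and an SH2 domain, read 3.46 and 1.55, and its 3 probes differed by -1.91 to -2.32. Mmd, a membrane protein associated with macrophage differentiation, read 1.82 and -0.50, and its 4 probes differed by -1.84 to -2.46. Mid1 and Mmd each hold a pair of probes that share sequence. For Stap1 the brightest probe read 1.44 on the WT and 1.45 on the Nr4a-TKO array of naive T. In mm9 the brightest probe lies at chr4:150320145-150320204 for Tnfrsf9, at chr1:137729476-137729535 for Lad1, at chr5:86507017-86507076 for Stap1 and at chr11:90112402-90112461 for Mmd, and whether it is exonic was not analysed here.

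**Figure D2:**
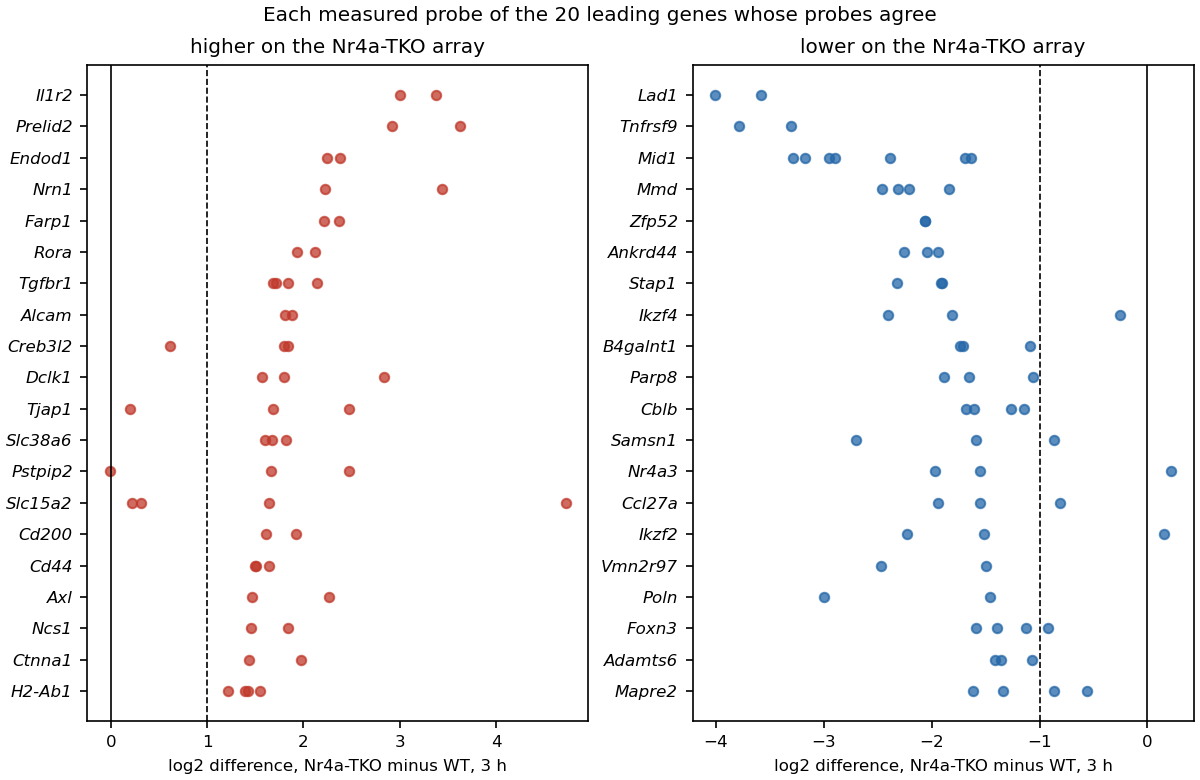
Each point is 1 measured probe of the 20 leading agreeing genes in each direction. Genes are ordered by the second largest difference among their probes, and the x axis is the log2 difference, Nr4a-TKO minus WT, at 3 h. The dashed line marks 2-fold, and the 7 points of Mid1 all lie beyond it, whereas Ikzf2, Nr4a3 and Pstpip2 each have a probe near 0.

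The promoters of the agreeing genes were searched for the sites of Nr4a, Ets and AP-1 factors. RefSeq promoters (GRCm38.p6, from 250 bases before to 50 after a gene's start) were found for 44 of the 58 higher and 25 of the 34 lower genes, and for 13065 of the measured genes. Letters were read on both strands, and a gene counted when any of its promoters held them. The Nr4a monomer site AAAGGTCA was in 0 of 44, 0 of 25 and 1.48% of the measured genes with a promoter. Its core, the half-site AGGTCA, was in 8 of 44, 5 of 25 and 16.2%. The Ets letters AGGAAG were in 17 of 44, 7 of 25 and 37.8%. The AP-1 site TGACTCA was in 3 of 44, 4 of 25 and 5.01%. The count of 4 is small, and the letters are not shown to be bound. The promoters of Tnfrsf9 and Cblb on the lower side and of Cd44 and Il2 on the higher side are printed as examples of genes described here. Only promoters that held at least 1 of these runs of letters were kept, so nothing is read from each having a match. Those of Tgfbr1 also held Ets matches and are not printed. The half-site, Ets and AP-1 letters are in capitals on whichever strand they were found.
Tnfrsf9, first start, chr4:150919905-150920204, plus strand: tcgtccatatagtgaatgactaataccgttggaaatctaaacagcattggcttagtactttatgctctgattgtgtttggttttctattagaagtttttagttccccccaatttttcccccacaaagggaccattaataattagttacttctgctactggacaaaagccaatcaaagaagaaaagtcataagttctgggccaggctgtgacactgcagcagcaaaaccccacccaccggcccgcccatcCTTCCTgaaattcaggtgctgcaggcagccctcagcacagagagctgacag
Tnfrsf9, other start, chr4:150927749-150928048, plus strand: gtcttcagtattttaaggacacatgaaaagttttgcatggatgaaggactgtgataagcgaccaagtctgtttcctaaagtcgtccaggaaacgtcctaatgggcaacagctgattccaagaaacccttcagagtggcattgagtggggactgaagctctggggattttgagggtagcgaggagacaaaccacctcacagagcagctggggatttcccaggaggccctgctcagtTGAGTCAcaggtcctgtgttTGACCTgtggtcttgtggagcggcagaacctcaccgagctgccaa
Cblb, chr16:52031299-52031598, plus strand: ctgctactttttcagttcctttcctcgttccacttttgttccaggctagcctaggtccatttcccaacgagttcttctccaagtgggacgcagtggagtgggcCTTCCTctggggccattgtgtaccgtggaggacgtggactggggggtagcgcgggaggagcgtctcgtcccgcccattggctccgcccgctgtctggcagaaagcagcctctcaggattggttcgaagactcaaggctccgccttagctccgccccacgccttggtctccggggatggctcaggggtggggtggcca
Cd44, chr2:102901616-102901915, minus strand: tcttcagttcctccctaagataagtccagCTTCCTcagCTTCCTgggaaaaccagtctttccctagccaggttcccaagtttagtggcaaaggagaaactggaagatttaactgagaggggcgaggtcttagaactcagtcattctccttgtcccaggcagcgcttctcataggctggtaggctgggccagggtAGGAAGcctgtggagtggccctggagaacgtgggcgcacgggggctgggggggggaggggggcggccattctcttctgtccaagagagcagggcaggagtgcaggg
Il2, chr3:37125905-37126204, minus strand: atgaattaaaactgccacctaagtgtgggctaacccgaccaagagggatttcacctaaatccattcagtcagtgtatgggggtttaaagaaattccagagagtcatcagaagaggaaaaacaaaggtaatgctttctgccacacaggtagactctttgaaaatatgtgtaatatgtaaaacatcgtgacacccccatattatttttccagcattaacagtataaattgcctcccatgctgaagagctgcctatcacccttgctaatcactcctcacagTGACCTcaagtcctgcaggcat
The first promoter of Tnfrsf9 held 1 Ets match, and the other held 1 AP-1 match and 1 half-site. Cblb had 1 Ets match, Cd44 had 3, and Il2 had 1 half-site.

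The TNF superfamily, whose ligands and receptors carry costimulation and cell death signals between immune cells, differed on both sides. Of 12 measured ligands, 4 were more than 2-fold higher on the Nr4a-TKO array and 0 lower, against 1.79% and 1.71% of all genes, with a median difference of 0.51 against 0.01 over all genes. Tnfsf8, the ligand of CD30, read 3.06 on the WT and 4.68 on the Nr4a-TKO array, and its other probe differed by 1.37. Lta, or lymphotoxin-α, read 3.19 and 4.35 from 1 probe. Tnfsf14, or LIGHT, read -0.68 and 0.58, and Tnfsf9, the ligand of 4-1BB, read -3.08 and -1.65. Thus the ligand Tnfsf9 was higher and its receptor Tnfrsf9 lower, on single readings near the floor for the ligand. Over the alternative settings the differences of Tnfsf8 and Lta stayed past 2-fold, whereas they fell short of 2-fold under at least 1 setting for Tnfsf14, at 0.73, and Tnfsf9, at 0.41. In naive T Tnfsf14 was already apart by 1.35, and Lta differed by 0.06.

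Of 16 measured TNF receptors, 2 were past 2-fold higher and 2 lower (1.79% and 1.71% of all genes), and the median difference was 0.32. Cd27, the costimulatory receptor of naive and memory T cells, read 3.60 on the WT and 2.38 on the Nr4a-TKO array. Tnfrsf14, or HVEM, the receptor of LIGHT, read 0.32 and 1.61, and its other probe differed by 2.06. Tnfrsf13c, the BAFF receptor, read -0.28 and 0.86, and is a gene of B cells, whose markers were higher on the same array by a median of 0.82. Their part in this reading was not tested. The receptors known from Treg cells, Tnfrsf18 (GITR) and Tnfrsf4 (OX40), differed by 0.28 and 0.66.

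Of 13 surface activation markers measured, 12 lay above 0, with a median difference of 0.90 at 3 h and 0.13 in naive T. Past 2-fold were 3 higher and 0 lower, against 1.79% and 1.71% of all genes. All 13 B cell and MHC class II markers were above 0 on the same arrays, with a median of 0.82, and their part in the list was not tested. Besides Cd44, Cd83, a glycoprotein of activated lymphocytes, B cells among them, and of dendritic cells, read -0.09 on the WT and 1.27 on the Nr4a-TKO array. Ly6a, or Sca-1, read 1.94 and 2.97. Cd69, the earliest of these to appear after TCR engagement, read 5.94 and 6.34, within 2-fold. The exception was Crtam, an adhesion receptor of cytotoxic cells, at -0.68. The median of the list moved with the background correction, to 0.50 without correction or with an offset of 50, where Cd44 remained past 2-fold and Ly6a did not, at 0.96 and 0.91. Immediate early genes of the Egr, Nab and Ier families had 0 of 9 past 2-fold, with Egr2 at 6.06 on the WT and 6.25 on the Nr4a-TKO array.

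Of 11 secreted cytokines measured, 7 lay above and 4 below 0, with a median of 0.20. Past 2-fold were 3 higher and 0 lower (1.79% and 1.71% of all genes). Il2, the growth factor of T cells, read 0.30 on the WT and 1.61 on the Nr4a-TKO array, and its other probe differed by 1.09. Il21, a cytokine of follicular and Th17 cells, read -2.50 and -0.64, but its other probe differed by -0.25. Lif, of the IL-6 family, read -1.51 and 0.12. Il2 and Il21 fell short of 2-fold under some alternatives, at 0.79 and 0.67 at the lowest, and Lif under 1, at 0.90. The brighter probes of Il2 and Il21 and the probe of Lif were not above background on both naive T arrays. Among chemokines, Ccl4, an inflammatory chemokine, read -0.56 and 0.75. Ifng, Il3 and the IL-27 and IL-35 subunit Ebi3 were above background on the Nr4a-TKO array alone. With the WT array set to its floor they were 2.50-fold, 3.35-fold and 2.90-fold higher on the Nr4a-TKO array. Il4, Il5, Il17a and Il10 were not above background on either array.

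Interleukin receptor chains showed single members apart and a median of 0.04 over 19. Beside Il1r2 on the higher side, Il6st, the gp130 chain shared by the IL-6 family, was lower, with 4.11 on the WT and 3.02 on the Nr4a-TKO array. Its other probes differed by -1.01 and -0.91. Il9r read -1.52 and -2.81, with -0.28 for its other probe. Il2ra, the high-affinity IL-2 receptor chain and a Treg marker, read 2.96 and 3.01. Among chemokine receptors, Cxcr3, a receptor of Th1 cells, read -2.73 and -0.92, and Ccr10, of skin-homing cells, read -1.70 and -3.54, each from 1 dim probe. Pim1, a kinase gene induced by cytokines, read 2.68 and 1.39, and had a similar difference of -1.37 in naive T.

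T helper lineage regulators had 4 of 17 members past 2-fold higher and 0 lower (1.79% and 1.71% of all genes), with a median of 0.37. Rora, a nuclear receptor of Th17 and tissue Treg cells, read 1.11 on the WT and 3.23 on the Nr4a-TKO array (probe at chr9:69227536-69227595 of mm9), and its other measured probe differed by 1.93. Between naive T and 3 h the level of Rora differed by 0.79 in WT and by 3.00 in Nr4a-TKO. Maf, a factor of Th2, Tfh and IL-10-producing cells, read 0.04 and 1.45. Zbtb7b, or ThPOK, the factor of the CD4 lineage, read -3.05 and -0.91. Its difference of 2.14 fell to 0.65 under an alternative, and it was too dim to be measured under the stricter filter. The median of the list was close to 0 with the stricter filter on dim probes, which left 12 members. The lineage factor Gata3 of Th2 cells differed by -0.45 and Bcl6 of follicular cells by -0.37.

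Of 19 TGF-β receptors, Smads and related genes, 3 were past 2-fold higher and 1 lower (1.79% and 1.71% of all genes). Tgfbr1, the type I receptor that phosphorylates Smad2 and Smad3, read 2.16 on the WT and 4.31 on the Nr4a-TKO array, 4.42-fold apart (probe at chr4:47427421-47427480 of mm9), and all 4 of its probes differed by 1.69 to 2.14. In naive T the same Tgfbr1 probe differed by 0.43. Smad7, the inhibitory Smad, read -0.57 and 0.63, and its other probe differed by 0.86. Pmepa1, a target and brake of TGF-β signalling, read -0.44 and 0.76. Outside the list, and named after its values were seen, Acvr2a, a type II receptor for activin, had 2 of 3 probes past 2-fold higher. The type II receptor Tgfbr2 differed by 0.27, and Smad2 and Smad3 by -0.10 and 0.73. Lrrc32, or GARP, which holds latent TGF-β on the surface of Treg cells, read -1.55 and -2.60. Under at least 1 alternative Lrrc32 fell short of 2-fold, at -0.38, as did Smad7 and Pmepa1, at 0.80 and 0.83. Tgfbr1 stayed past 2-fold. Itgb8, a chain of the integrin that activates latent TGF-β, was above background on the WT array alone. It was 6.65-fold higher there with the Nr4a-TKO array set to its floor.

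Treg genes went both ways, with 4 of 18 past 2-fold higher and 3 lower on the Nr4a-TKO array (1.79% and 1.71% of all genes). This count takes the brightest probe of each gene. The 3 lower genes include Tnfrsf9, described above, and Foxp3. They do not include Ikzf4 and Ikzf2, whose brightest probes differed by -0.25 and 0.15. Foxp3, the lineage factor, read 0.60 on the WT and -0.88 on the Nr4a-TKO array from 1 probe, and its naive difference of -1.34 was close in size. Ikzf4, or Eos, a cofactor of Foxp3, had 3 measured probes, with differences of -2.41, -1.81 and -0.25 at 3 h. The same Ikzf4 probes differed by -1.73, -1.91 and -0.34 in naive T. Ikzf2, or Helios, had probes at -2.23, -1.52 and 0.15, and all 3 were lower in naive T, by -1.22 to -1.46. On the higher side, Gpr83, an orphan receptor, read -1.09 and 1.35, and Izumo1r, the folate receptor family member of Treg and tolerant cells, read 1.36 and 2.90. Nrp1, the coreceptor that marks thymic Treg cells, read 0.43 and 1.55, and Capg, an actin-capping protein, 0.55 and 1.72. Gpr83 and Izumo1r were already apart in naive T, by 1.53 and 1.40, and Nrp1 by 0.93. Ctla4, the inhibitory receptor, read -0.79 and -0.77. Of the genes past 2-fold in this list, Capg alone had a naive difference below 0.5 in size.

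TCR signalling genes and their negative regulators were both spread around 0. Of 20 genes of the TCR complex and its proximal signalling, 2 were past 2-fold higher and 1 lower (1.79% and 1.71% of all genes). Lat, the scaffold of the proximal signal, read 3.05 on the WT and 4.20 on the Nr4a-TKO array, and Themis, a regulator of thymocyte selection, read -1.05 and -0.01. Prkcq, or PKC-θ, read 2.05 and 1.01, with a difference of -1.04, and its other probes also lay at the edge of the threshold. Over the alternative settings Lat stayed past 2-fold, whereas Themis and Prkcq fell short under some, at 0.62 and -0.83. Of 18 genes that restrain TCR signals, 8 lay above and 10 below 0, with a median of -0.06, and 0 were past 2-fold higher and 2 lower, against 1.79% and 1.71% of all genes. Cblb, a ubiquitin ligase needed for tolerance, read 3.70 and 2.44, and all 4 of its probes differed by -1.14 to -1.69. Cblb differed by -0.35 in naive T. Ubash3a, a phosphatase-like suppressor, read 1.34 and 0.11, and 2 of its 3 probes were past 2-fold. Its relative Ubash3b lay on the other side, at 0.80.

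Of 17 measured dual-specificity phosphatase and Sprouty genes, 1 was past 2-fold higher and 1 lower, with a median of 0.12. Of 8 measured RGS genes, which regulate G proteins, 0 were higher and 1 lower, with a median of -0.10. The shares over all genes were 1.79% and 1.71%. Rgs16, which speeds the shut-off of G protein signals, read 2.54 on the WT and -0.61 on the Nr4a-TKO array, 8.83-fold apart from 1 probe, while 0 of the other 7 RGS genes were past 2-fold. Dusp1 and Dusp6 inactivate MAP kinases. Dusp1 read 2.07 and 0.08, and Dusp6 lay the other way with 2.01 and 3.12. Dusp14 had 2 of 3 probes past 2-fold higher, but its brightest probe differed by 0.09. Of 16 measured inhibitory and costimulatory receptors around CD28 and their ligands, 3 were past 2-fold higher and 2 lower (1.79% and 1.71% of all genes). Besides Cd200, Pdcd1, or PD-1, read 0.19 and 1.62, and Cd226 read -1.79 and -0.65. Tigit, which competes with Cd226 for its ligands, read -1.73 and -4.13, close to the floor, and Cd86, a ligand of CD28, read -1.62 and -3.19. Under some alternatives Tigit and Cd86 fell short of 2-fold, at -0.52 and -0.46. Slamf6, a receptor of the SLAM family, had 2 of 3 probes past 2-fold higher. Of 14 measured BCL2 family genes, 2 were past 2-fold higher and 0 lower (1.79% and 1.71% of all genes). In that family 7 lay above and 7 below 0, with a median of 0.01. Bcl2l1, which encodes the survival protein Bcl-xL, read 3.10 and 4.22, and its 5 probes all lay on the higher side, between 0.66 and 1.12. The other higher member was Pmaip1, at 1.08. Over the alternatives Bcl2l1 and Pmaip1 fell short of 2-fold under at least 1, at 0.91 and 0.67 at the lowest. Cdk6, a kinase of entry into the cell cycle, read 0.34 and 1.73, with all 3 probes past 2-fold higher.

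Further families of transcription factors and housekeeping functions are given by their count past 2-fold in either direction, which was 3.5% over all genes. The count was 0 of 15 for NF-κB subunits and inhibitors, of which 13 lay above 0, with a median of 0.24. It was 0 of 11 for STAT factors and Janus kinases, with the same median of 0.24 and Stat3 at 0.87. For interferon regulatory factors the count was 0 of 8, and for interferon-stimulated genes 1 of 31, Xaf1, which was lower. The AP-1 family had 1 of 14, Maf, with Junb at 0.06 and Batf at 0.33. Its member Batf3 was above background on the WT array alone, 2.19-fold higher there with the Nr4a-TKO array set to its floor. Glycolysis genes had 0 of 20, ribosome biogenesis factors 0 of 25 with 24 below 0 and a median of -0.11, and cytosolic ribosomal proteins 0 of 33 with a median of 0.05. Cholesterol genes had 1 of 26, the exporter Abca1, with 21 above 0 and a median of 0.18. The Ets family had 2 of 13, Elk3, with 0.41 on the WT and 1.63 on the Nr4a-TKO array, and Spib, a factor of B and dendritic cells, with -2.30 and -0.72. The B cell markers were higher on the same array by a median of 0.82, and their part in the Spib reading was not tested. Ets1 differed by -0.03.

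**Figure D3:**
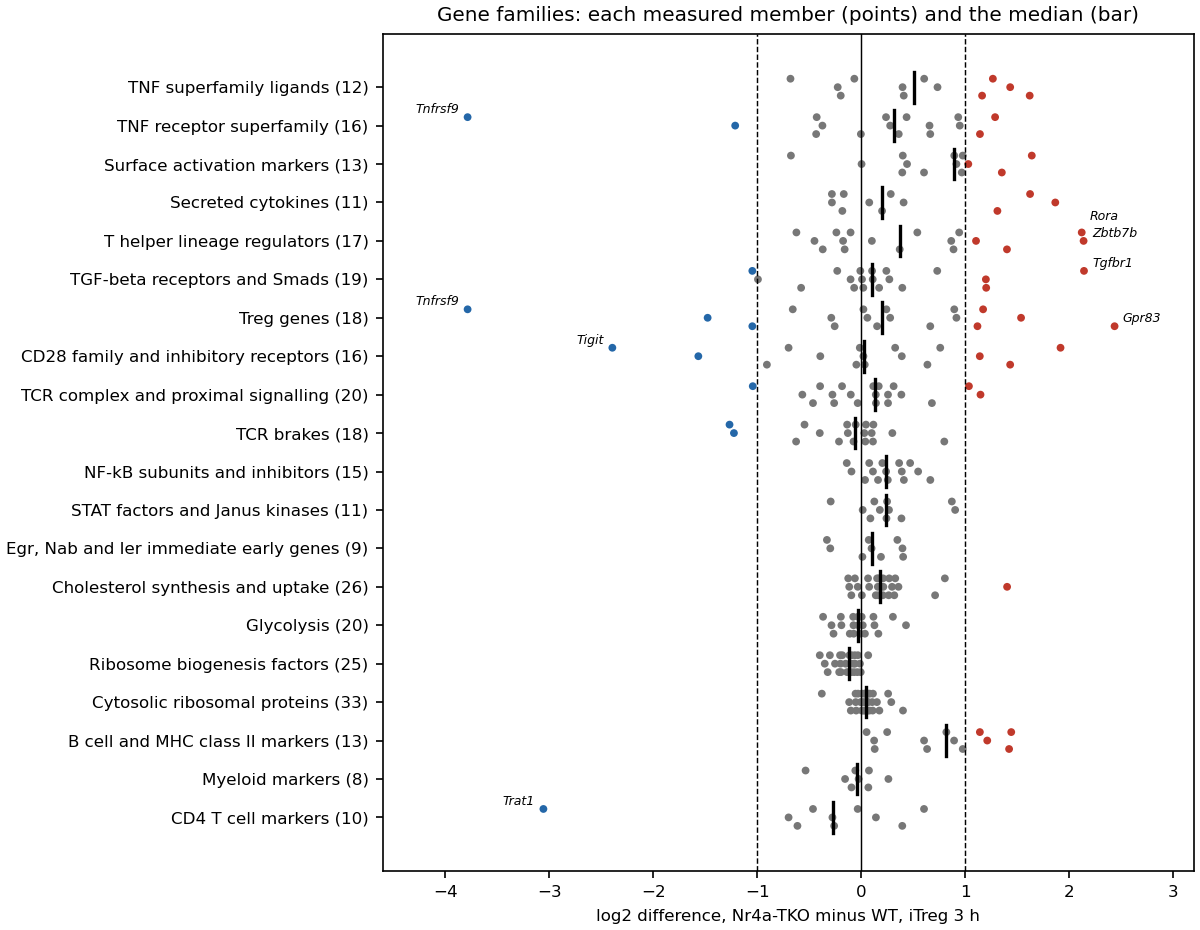
Log2 difference, Nr4a-TKO minus WT at 3 h, of each measured member of 20 gene families (number measured in brackets), with black bars at the medians and dashed lines at 2-fold. Red and blue points are past 2-fold. The medians of surface activation markers, 0.90, and B cell and MHC class II markers, 0.82, lie farthest to the right, and the ribosome, glycolysis and NF-κB members all lie inside the dashed lines.

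The same probes in naive T show which agreeing differences were there before culture. Of the 53 higher genes measured in naive T, 15 were past 2-fold the same way (against 1.41% of 16756 genes), and 24 were within 0.5 of 0, with a median of 0.62. Of the 32 lower genes measured there, 7 were past 2-fold the same way (against 1.18%) and 21 within 0.5 of 0, with a median of -0.35. On neither side was a gene past 2-fold the opposite way. The naive and 3 h comparisons share no array, but share genotype and type of chimera. Between naive T and 3 h in WT, 14 of 32 lower genes were more than 2-fold higher at 3 h and 4 lower (10.1% and 10.3% of 17054 genes). In Nr4a-TKO 4 of 33 were higher and 6 lower (9.68% and 9.08% of 17118 genes). For the higher genes 13 of 54 were higher at 3 h in WT and 29 of 55 in Nr4a-TKO. The 3 h levels of both genotypes enter the rule that chose these genes, which favours such a split between genotypes on either side, so nothing is read from these 4 counts. As values, Stap1 differed by 2.02 between the stages in WT and by 0.10 in Nr4a-TKO, and Lad1 by 2.93 and -0.73. Tgfbr1 differed by 1.62 and 3.33, and Cd44 by 0.89 and 2.30. A pair of genes named after their values were seen had the larger difference before culture. Igf1r, the IGF-1 receptor, lay at 1.74 in naive T and 1.03 at 3 h, and Smc4, a condensin subunit, at -1.91 and -1.02.

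**Figure D4:**
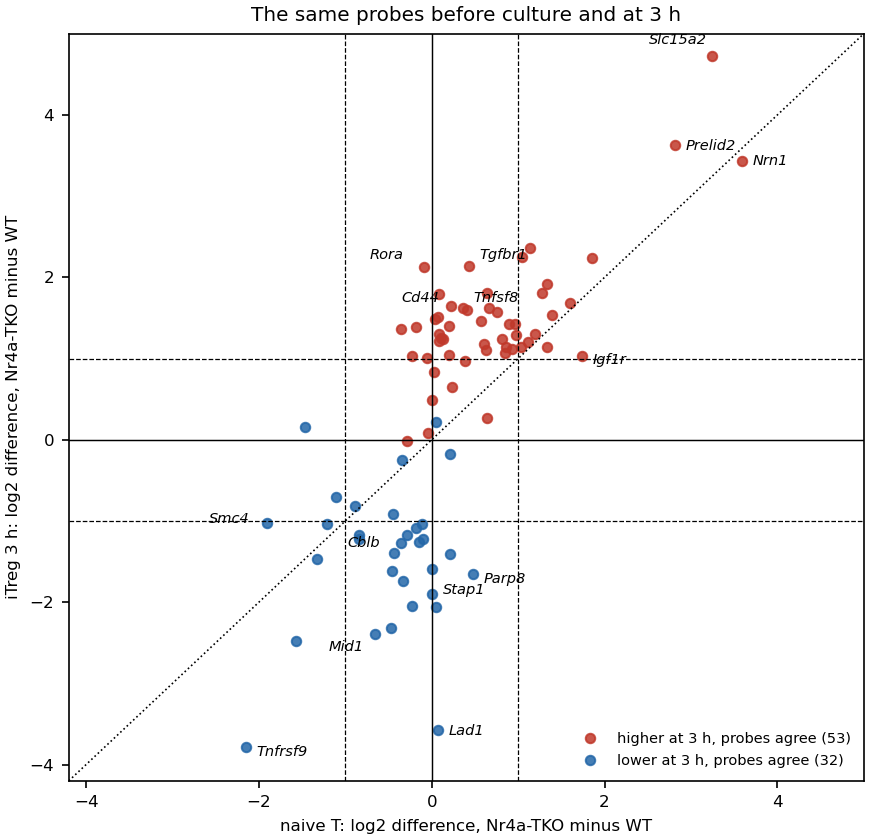
Log2 difference, Nr4a-TKO minus WT, of the brightest measured probe of each agreeing gene in naive T (x axis) and in iTreg cells at 3 h (y axis), with 53 higher genes in red and 32 lower genes in blue. Dashed lines mark 2-fold and the dotted line equal differences. Rora, Cd44, Lad1 and Stap1 lie near 0 in naive T, whereas Nrn1, Slc15a2 and Prelid2 lie beyond 2-fold at both stages.

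Among genes with 1 measured probe, the 5 largest differences on each side included olfactory, taste and keratin genes. Gzme, a granzyme of cytotoxic cells, read 0.58 on the WT and -3.84 on the Nr4a-TKO array. The others on the lower side were Gm32265, Olfr1507, Olfr904 and Spin4, with differences of -4.17, -3.86, -3.59 and -3.45. On the higher side were the hair keratin Krt35 at 4.26, the taste receptor Tas2r134 at 4.20, Apon at 3.54, Has2os at 3.11 and Fam162b at 3.04. None of these 10 had a second measured probe to set beside the first. Of the 10, 5 were above background on both naive T arrays, and their differences there ranged from -0.68 to 0.58. Plagl1, an imprinted zinc finger gene named after its values were seen, was 11.1-fold apart by its brightest probe, with 2.88 on the WT and 6.35 on the Nr4a-TKO array, but its 3 probes did not meet the rule for agreement. In naive T the same Plagl1 probe differed by 2.80.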

How the data were processed

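RNA of naive CD4+ T cells and of iTreg cells after 3 h of culture, from WT and Nr4a-TKO mice, was hybridised to single-colour (Cy3) Agilent arrays, 1 array per group, read with Agilent Feature Extraction 11.5.1.1 per the file headers. Deposited were spot intensity values after the scanner's background subtraction, and the authors' log2 values. The methods name RMA in GeneSpring, but within each array the deposited log2 values equal log2 of the processed intensity minus a constant. Here each array's processed intensity was divided by its 75th percentile over spots other than controls, outlier spots were left out, and spots of a probe were averaged (R 4.3.3). Probes were named through RefSeq names (41700 by current symbol, 1552 by transcript, 586 by synonym, 2519 with the name in the file, 10248 without a name). A gene takes its measured probe with the highest mean of both arrays. Probes well above background on both arrays were measured, and past 2-fold means a log2 difference over 1 in size. Probe coordinates are those of the array annotation (mm9).

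Genes named are the 3 targeted genes, members of the fixed lists past 2-fold, the 20 leading agreeing genes per direction (a selection of which is described) and the 5 leading genes with 1 probe per direction. List members within 2-fold are named where they define a list. A member of the T helper list is counted but not reported here. The members and lists were chosen with earlier results of these data known. With 1 array per group no test was run. Alternatives were RMA-like normexp and quantile normalization, an offset of 50 and no background correction (limma 3.58.1), centring on the median, the deposited log2 values, filters on dim probes, the mean of probes, and thresholds of 1.5-fold and 3-fold. The counting was tested on simulated data (Python 3.11.15, pandas 2.3.3, numpy 2.4.6, matplotlib 3.10.9).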

Additional observations from a re-analysis of the deposited data

Results flagged for a closer look

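For 5 named genes past 2-fold at 3 h, the same probe in naive T lay on the opposite side of 0 by more than 2 SDs of repeated spots. Other named genes on opposite sides, such as Rora at -0.09 and Lad1 at 0.08 in naive T, were within that spread there and are not counted. Each stage had 1 array per group, and the difference between the stages was not tested. Cxcr3 was at 1.81 at 3 h and -0.76 in naive T. Dusp1 was at -1.99 at 3 h and 0.52 in naive T. Il9r was at -1.29 at 3 h and 0.61 in naive T. Parp8, a mono-ADP-ribosyltransferase with 3 of 3 probes past 2-fold lower, was at -1.66 at 3 h and 0.48 in naive T. Themis was at 1.04 at 3 h and -0.23 in naive T.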

How the results depend on the processing

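The counts past 2-fold depended on the treatment of dim probes, while 0 of the 112 genes past 2-fold that the naming rule selects, of which the text describes a part, changed sign under any alternative that gave a value, and 51 stayed past 2-fold the same way under each of these. The alternatives were not run for Plagl1, Igf1r, Smc4 and Acvr2a, which that rule does not select. The 318 higher and 305 lower genes became 207 and 192 with RMA-like normexp and quantile normalization, 56 and 63 with an offset of 50, 125 and 114 without background correction, 133 and 105 with the stricter filter (12607 genes), 597 and 582 with no filter (19942 genes), 1095 and 923 at 1.5-fold, and 98 and 105 at 3-fold. The 58 higher genes with agreeing probes became 37, 12, 29 and 30 under the first 4 of these settings, 181 at 1.5-fold and 15 at 3-fold. The 34 lower ones became 9 with the offset of 50, 16 without background correction, 21 with the stricter filter, 101 at 1.5-fold and 12 at 3-fold. The remaining settings left these counts within 1.5 times. Counting probes that share a run of 20 bases once, chosen after seeing the data, left 56 and 33. Of the genes past 2-fold with the offset of 50, 55 higher and 63 lower ones were among those of the main setting. No replicate could be left out with 1 array per group. No paired analysis was possible because each group has 1 array. Near the floor a difference has a larger spread between spots, and depth as counts does not apply to arrays.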

Other observations

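Of 117 measured genes of the Zfp-named KRAB zinc finger family, 4 were more than 2-fold higher on the Nr4a-TKO array and 1 was lower. Over all genes the shares were 1.79% and 1.71%, and the median difference of the family was 0.07. The 4 higher were Zfp600, Zfp69, Zfp760 and Zfp715, and each fell short of 2-fold under at least 1 alternative, Zfp715 to 0.23. The lower one, Zfp52, read 1.02 on the WT and -1.04 on the Nr4a-TKO array, and both of its probes differed by -2.06. Among 19 S100 proteins, annexins and galectins, Anxa2, a membrane-binding annexin, was past 2-fold higher at 1.83. Of 20 KLF and naive T cell factors, Klf4 was higher at 1.26 and Klf9 lower at -1.43, and 13 lay below 0. Anxa2, Klf4 and Klf9 fell short of 2-fold under some alternatives, at 0.39, 0.32 and -0.45. The 4 measured NK cell markers had a median of -0.17, the 2 CD8 T cell markers -0.54 and the 5 erythroid markers 0.26.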
